A study of Mus musculus with 12 samples.

Results

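The genes described here carry out antigen presentation by the major histocompatibility complex (MHC) in mouse skin. They were chosen by name among the non-control probes of the array: every gene name beginning with H2-, and B2m, Tap1, Tap2, Tapbp, Psmb8, Psmb9, Psmb10, Psme1, Psme2, Erap1, Nlrc5, Ciita and Cd74. The names took in 69 probes of 52 genes, and no probe was named Psme2. Probes were kept whose skin signal cleared the background clearly (the extraction program's own test) on 3 or more of the 12 arrays, which left 55 probes of 44 genes among 28838 kept probes of 39429 in all. Of these, 40 probes of 31 genes belonged to the class I pathway and 13 probes of 11 genes to the class II pathway. The other 2, H2-Ke2 (Pfdn6 in RefSeq) and H2-Ke6, are genes of the same locus with other functions. Just inside the filter, an H2-T3 probe was well above background on 5 arrays and an H2-T18 and an H2-DMb2 probe on 6. Just outside it, H2-M10.4 passed on 2 arrays and another H2-Ob probe on 1. The remaining 12 probes left out passed on 0 arrays, among them the probe for H2-Ea-ps, the inactive Ea gene of the C57BL/6 strain.

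The study measured RNA of the skin of C57BL/6 male mice of about 8 weeks, with 3 mice in each of 4 groups and 1 array a mouse. Incised skin carried a sutured wound of 1 cm and was injected into the dermis 72 h after wounding, either with 100 nmol of a miR-29b mimic or with PBS. Intact skin was injected either with 100 nmol of a miR-29 inhibitor, labelled antimiR-29, or with PBS. In all 4 groups the skin around the injection was taken 24 h later. The design thus sets a miR-29 mimic in wounds, and a miR-29 inhibitor in unwounded skin, against PBS. None of the 4 groups received a control oligonucleotide. An effect of miR-29 therefore cannot be told apart from a response to injected oligonucleotide as such. The mimic was given only to wounded skin and the antimiR only to intact skin, so agent and kind of skin cannot be told apart when the 2 effects are set side by side.

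Class I molecules are made by nearly all cells. A heavy chain pairs with beta-2 microglobulin and carries a peptide that the proteasome cut in the cytosol, that the TAP transporter moved into the endoplasmic reticulum and that tapasin helped to load. Class II molecules belong mainly to dendritic cells, Langerhans cells, macrophages and B cells and show peptides from endosomes after the invariant chain Cd74 is removed. Interferon raises class I genes through STAT and IRF factors and Nlrc5, while class II genes depend on Ciita.

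The miR-29 family has 3 mature forms with 1 seed, printed in capitals at bases 2 to 8 (RefSeq, GRCm38.p6). They are shown because the mimic carries the name of one of them and the inhibitor that of the family.
miR-29a-3p (chr6): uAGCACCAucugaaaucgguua
miR-29b-3p (chr6 and chr1): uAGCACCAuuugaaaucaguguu
miR-29c-3p (chr1): uAGCACCAuuugaaaucgguua

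Class I genes resemble each other, which limits how far a probe speaks for 1 gene. Among 1367 pairs of kept member probes of different genes, 7 pairs shared a run of at least 15 bases, all of them among 8 class I genes. The longest run, of 29 bases, lay in a probe of H2-K1 and in the probe of H2-T23 and is given in capitals (mm9, minus strand, chr17:34133984-34134043 and chr17:36167338-36167574).
H2-K1, second probe: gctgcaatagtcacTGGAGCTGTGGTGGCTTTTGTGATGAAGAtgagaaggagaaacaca
H2-T23: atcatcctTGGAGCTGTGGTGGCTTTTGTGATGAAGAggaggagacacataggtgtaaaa
Values of H2-K1, H2-K2, H2-Q2, H2-Q7, H2-Q8, H2-Q10, H2-T3 and H2-T23 are therefore uncertain as to the single gene. B2m, Tap1, Tap2, Tapbp, the Psmb genes, Nlrc5 and the class II genes had no such shared run with another member. Probes were compared only with each other and not with the transcripts of other genes, so a missing run does not show that a probe is specific. The probes of H2-T9 and H2-T10 shared no such run, yet their log2 fold changes were close. These were 0.82 and 0.749 for antimiR, 0.347 and 0.37 for the wound, and 0.099 and 0.108 for the mimic.

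Promoters of class I and class II genes are known to share some letters, which were searched for here as short motifs. The 250 bases before the start of 4 genes are given from RefSeq (GRCm38.p6), with capitals on 3 motifs searched on both strands: AANNGAAA, the core bound by IRF factors, TGACG, which lies in the X2 part of MHC promoters, and CCAAT, their Y box.
B2m (chr2:122147437-122147686, plus strand): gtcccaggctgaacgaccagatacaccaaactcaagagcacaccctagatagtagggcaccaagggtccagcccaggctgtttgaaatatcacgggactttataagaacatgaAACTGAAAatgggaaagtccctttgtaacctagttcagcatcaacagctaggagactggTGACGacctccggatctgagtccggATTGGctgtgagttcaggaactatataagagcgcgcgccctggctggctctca
Tap1 (chr17:34187306-34187555, plus strand): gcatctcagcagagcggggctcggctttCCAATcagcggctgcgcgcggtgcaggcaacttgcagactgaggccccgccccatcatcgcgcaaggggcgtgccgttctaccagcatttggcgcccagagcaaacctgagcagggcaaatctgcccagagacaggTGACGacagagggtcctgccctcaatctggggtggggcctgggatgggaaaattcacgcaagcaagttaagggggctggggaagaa
H2-K1 (chr17:34000348-34000597, minus strand): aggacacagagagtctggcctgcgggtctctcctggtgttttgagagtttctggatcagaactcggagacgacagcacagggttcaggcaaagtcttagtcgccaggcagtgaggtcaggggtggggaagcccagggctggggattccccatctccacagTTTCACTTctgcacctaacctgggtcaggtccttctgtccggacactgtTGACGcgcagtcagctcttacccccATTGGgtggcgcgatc
H2-Aa (chr17:34287824-34288073, minus strand): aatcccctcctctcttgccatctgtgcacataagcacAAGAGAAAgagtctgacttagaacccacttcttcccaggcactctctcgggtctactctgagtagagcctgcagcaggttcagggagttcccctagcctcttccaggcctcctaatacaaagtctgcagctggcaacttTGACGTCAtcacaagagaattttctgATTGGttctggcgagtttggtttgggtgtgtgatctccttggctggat
In B2m the core AACTGAAA began 137 bases before the start, TGACG 78 and ATTGG, the Y box on the other strand, 53 bases before it. In H2-Aa, TGACG began 74 and its overlapping reverse CGTCA 71 bases before the start, with ATTGG at 48. The Tap1 window held TGACG and CCAAT but no AANNGAAA, which says only that these letters are not in that window. In Tap1, CCAAT began 222 bases before the start, upstream of TGACG at 86. In B2m, H2-K1 and H2-Aa, ATTGG lay downstream of TGACG, so the Tap1 CCAAT is not shown to be a Y box. Tap1 starts 225 bases away from Psmb9, which runs the other way, so the windows of the 2 genes overlap. Windows were matched for 30 of the 44 genes, 21 of them class I and 8 class II. AANNGAAA stood in 12 of the 21 class I windows (57.1%), in 2 of the 8 class II windows (25%) and in 21.3% of all 32851 windows of this length. All 12 were windows of B2m or of H2 genes. The windows of Psmb8, Psmb9, Psmb10, Psme1, Tap1, Tapbp, Erap1, H2-M5 and H2-M9 held none. Whether these letters bear on the changes below was not tested. TGACG stood in 9 class I windows (42.9%), in 1 class II window (12.5%), that of H2-Aa printed above, and in 17.8% of all windows. CCAAT stood in 14 class I windows (66.7%), in 7 class II windows (87.5%) and in 33.8% of all. A longer pair of IRF letters, GAAA followed by any 2 bases and GAAA again, was in 2 class I windows (9.52%), in 0 class II windows and in 2.98% of all. The STAT letters TTCNNNGAA were in 3 class I windows (14.3%), in 1 class II window (12.5%) and in 7.02% of all.

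All values below are log2 ratios of skin RNA over a universal mouse reference RNA on the same array, so a value is compared between groups for 1 probe and never between probes. By that same test, between 65.6 and 73.8% of probes on an array cleared the background, and 0 spots were saturated. All 7 keratinocyte markers and all 6 fibroblast markers were measured, and their levels by group are given with those of other cell types at the end. Intact PBS array 3 stood apart, with a median correlation of 0.92 to the other arrays of its group against 0.94 to 0.97 on the other arrays. Its adipocyte marker score was 0.80, against -0.012 and -0.006 on intact PBS 1 and 2. That score was 0.76 on incised PBS 2, 0.41 on mimic 3 and -0.92 to 0.19 on the remaining arrays. Intact PBS array 2 carried a hair follicle marker score of 4.67, against -0.59 to -0.14 on all others. Most counts that rest on intact PBS are therefore also given without intact PBS 2 and without intact PBS 3. The arrays lay on 3 slides: mimic 1 with the 3 incised PBS arrays, mimic 2 and 3 with intact PBS 1 and 2, and the 3 antimiR arrays with intact PBS 3. Calls are limma's, at a Benjamini-Hochberg adjusted p under 0.05 over all kept probes, and errors after a fold change are standard errors.

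In intact skin, class I pathway genes that cut, move and load peptides were higher with antimiR, the 7 that passed by 1.44 to 2.25-fold, while the classical heavy chains H2-K1 and H2-D1 did not pass. Of the 40 class I probes, 16 rose and 0 fell with antimiR, against 5.08% of all probes that rose and 6.03% that fell. The count was 10 when arrays were scaled to each other and 9 with only the antimiR and intact PBS arrays in the fit. The 16 probes carried the names of 15 genes: the proteasome genes Psmb8, Psmb9, Psmb10 and Psme1, the loading genes Tap1, Tap2 and Tapbp, B2m, Nlrc5, and H2-M2, H2-M3, H2-T9, H2-T10, H2-T23 and H2-T24. All 3 antimiR arrays lay above all 3 intact PBS arrays for 24 of the 40 class I probes, against 13% of all probes. The median log2 fold change was 0.27 over class I probes and 0.26 over the 13 class II probes, against -0.004 over all probes. In class II, 2 of 13 probes rose, H2-DMb1 and H2-Oa, and 0 fell.

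The immunoproteasome, whose subunits replace those of the standard proteasome and favour peptides that fit class I, had the highest median change of the class I roles, at 1.01 over 5 probes of which 4 rose. Psmb8 (chr17:34337771-34337830, mm9), a catalytic subunit, had log2 ratios of 0.77, 1.14 and 0.94 in antimiR skin, against -0.07, -0.06 and -0.06 in intact PBS skin. The groups did not overlap, and the change was 1.01 ± 0.12, or 2.02-fold (adjusted p 0.000463). Psmb9 (chr17:34319174-34319233), the second catalytic subunit encoded beside the TAP genes, had 1.19, 1.49 and 1.56 in antimiR skin, against 0.27, 0.38 and 0.09 in intact PBS skin. It too separated the groups, at 1.17 ± 0.14 or 2.25-fold (adjusted p 0.000584). A dimmer second Psmb9 probe did not follow, with a change of 0.12 (adjusted p 0.596). Psmb10 (chr8:108459677-108459736), the third catalytic subunit, had 0.80, 1.22 and 1.13 in antimiR skin, against 0.09, 0.12 and -0.15 in intact PBS skin. All antimiR arrays were higher, by 1.03 ± 0.11 or 2.04-fold (adjusted p 0.000311). Psme1, a subunit of the proteasome activator PA28, had 0.23, 0.40 and 0.42 in antimiR skin, against -0.07, -0.15 and -0.33 in intact PBS skin, and rose by 0.53 ± 0.10 (adjusted p 0.00649). Psmb8, Psmb9, Psmb10 and Psme1 kept their calls when any single array was left out.

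Of 4 genes for peptide transport, trimming and loading 3 rose, with a median of 0.83. Tap2 (chr17:34353116-34353175), one chain of the peptide transporter, had 0.47, 0.90 and 0.85 in antimiR skin, against -0.05, -0.37 and -0.03 in intact PBS skin, a change of 0.89 ± 0.13 or 1.85-fold (adjusted p 0.00179). Tapbp (chr17:34065963-34066022), which encodes tapasin, had 0.34, 0.48 and 0.50 in antimiR skin, against -0.35, -0.41 and -0.49 in intact PBS skin. The groups lay well apart, with a change of 0.85 ± 0.09 or 1.81-fold (adjusted p 0.000229). Tap1 (chr17:34330854-34330913), the other transporter chain, had 0.76, 1.21 and 1.19 in antimiR skin, against 0.54, 0.39 and -0.18 in intact PBS skin. The change was 0.80 ± 0.22 (adjusted p 0.0369), and the call was lost without intact PBS 2, intact PBS 3, antimiR 2 or antimiR 3 (adjusted p 0.0562 to 0.119). Erap1, the peptidase that trims peptides in the endoplasmic reticulum, changed by 0.17 (adjusted p 0.402), with overlapping groups.

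Of the 4 probes of the presenting molecules, for B2m and the classical heavy chains, 1 rose, with a median of 0.27. B2m (chr2:121978401-121978460), the light chain of all class I molecules, had 0.79, 0.95 and 1.04 in antimiR skin, against 0.50, 0.53 and 0.71 in intact PBS skin. The groups did not overlap and B2m rose by 0.35 ± 0.10 or 1.27-fold (adjusted p 0.0466), but the call was lost without intact PBS 1, intact PBS 2, antimiR 2 or antimiR 3 (adjusted p 0.12 to 0.147). H2-K1 (chr17:34133055-34133114), a classical heavy chain, had 2.16, 2.42 and 2.41 in antimiR skin, against 2.01, 1.98 and 2.28 in intact PBS skin. The antimiR arrays overlapped the PBS arrays, and the change of 0.24 ± 0.10 did not pass (adjusted p 0.177). H2-D1 (chr17:35403886-35403945), the other classical heavy chain of this strain, had 2.10, 2.14 and 2.11 in antimiR skin, against 1.99, 1.98 and 2.12 in intact PBS skin, a change of 0.09 ± 0.08 that did not pass (adjusted p 0.535) and that was negative, at -0.08, when arrays were scaled to each other. Nlrc5 (chr8:97051105-97051164), the activator of class I genes, had 2.92, 3.54 and 3.40 in antimiR skin, against 2.65, 2.77 and 2.45 in intact PBS skin. It rose by 0.67 ± 0.19 (adjusted p 0.0465), a call that was lost without any 1 of the 3 intact PBS arrays, antimiR 2 or antimiR 3 (adjusted p 0.0649 to 0.159), and its second probe changed by 0.10 (adjusted p 0.514).

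Among the 25 probes of other H2 class I genes, 7 rose with antimiR and 0 fell, with a median of 0.24. H2-T24, a nonclassical gene, had 1.07, 1.11 and 1.06 in antimiR skin, against 0.03, 0.08 and -0.32 in intact PBS skin. Its groups lay far apart, the change was 1.15 ± 0.21 (adjusted p 0.00665), and a second probe rose by 0.72 (adjusted p 0.000665). H2-M3, which presents formylated bacterial peptides, had 0.19, 0.31 and 0.34 in antimiR skin, against -0.75, -0.34 and -0.77 in intact PBS skin, and rose by 0.90 (adjusted p 0.00362). H2-T9 rose by 0.82 (adjusted p 0.00601) and H2-T10 by 0.75 (adjusted p 0.00418), 2 nonclassical genes known as ligands of gamma delta T cells or their close relatives. Whether their probes tell these 2 genes apart was not tested. H2-T23, which encodes the Qa-1 molecule seen by NK cell receptors, rose by 0.57 (adjusted p 0.0243), a call lost without intact PBS 1, intact PBS 2, antimiR 1 or antimiR 2 (adjusted p 0.0638 to 0.0926). The 2 probes of H2-M2 disagreed, at 0.25 (adjusted p 0.0842) for the brighter and 1.05 (adjusted p 0.0197) for the dimmer. H2-M9 went the other way without passing, at -0.49 (adjusted p 0.0997), although its call passed in the extraction program's processed signals, in the deposited table and without antimiR 1.

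**Figure D1:**
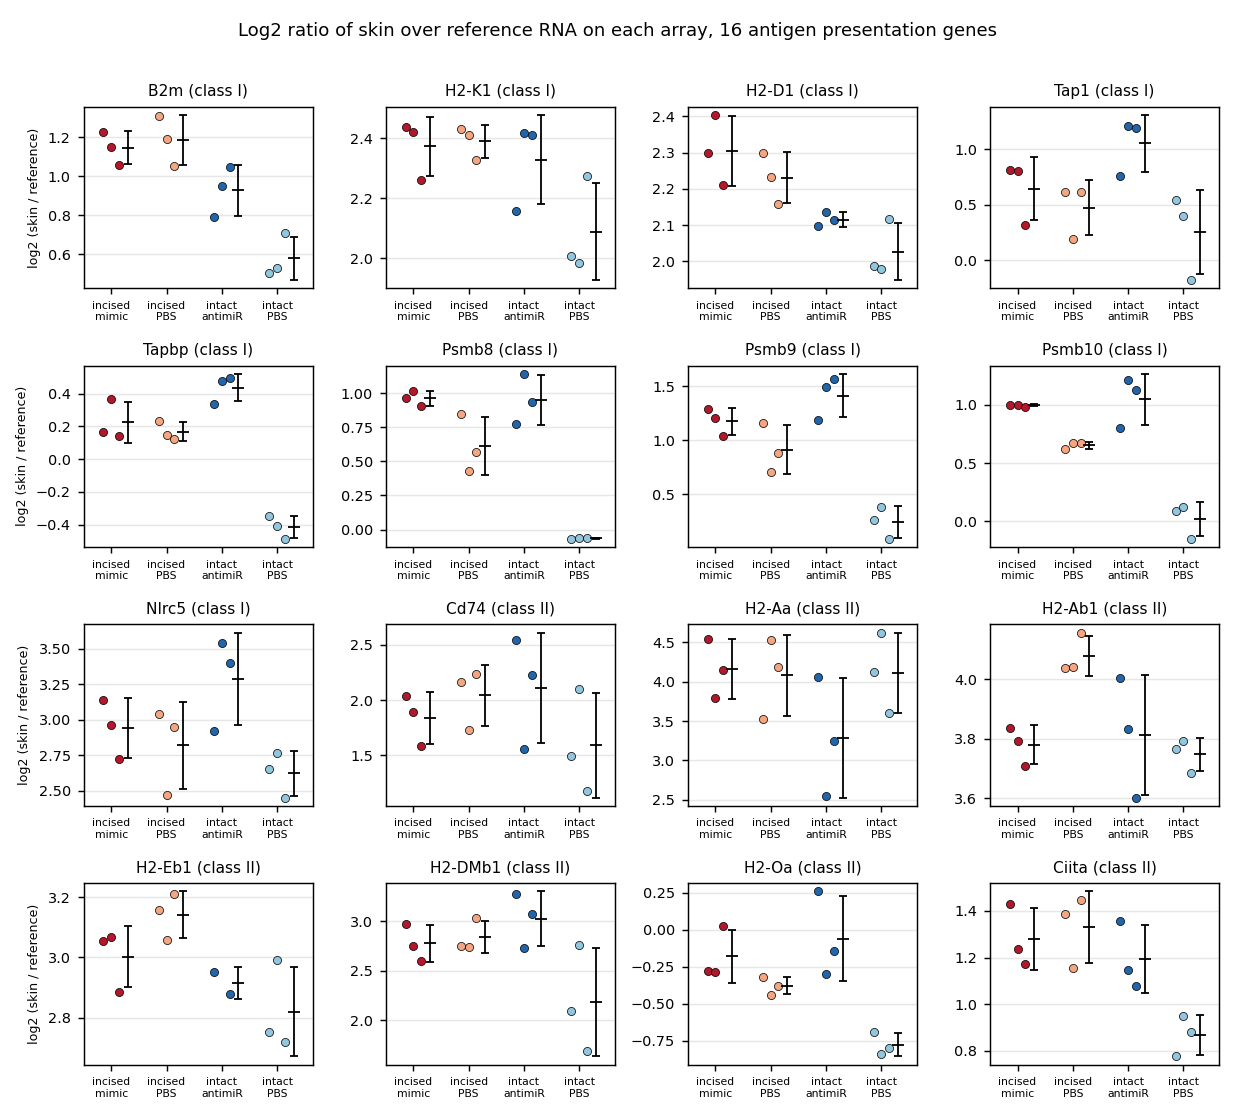
Log2 ratio of skin over reference RNA (vertical axes, with a scale of their own in each panel) on each array for 16 genes, in the groups incised mimic, incised PBS, intact antimiR and intact PBS. Points are arrays (3 a group, 2 for H2-Eb1 in antimiR skin), and bars beside them the mean and SD. The antimiR points of Psmb8, Psmb9, Psmb10 and Tapbp lie clear above the intact PBS points, while those of H2-D1, H2-Ab1 and H2-Aa overlap.

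The class II chains followed no common course under antimiR. H2-Aa (chr17:34421285-34421344), the alpha chain of I-A, had 4.06, 2.55 and 3.24 in antimiR skin, against 4.12, 4.62 and 3.596 in intact PBS skin. The arrays scattered widely, and the change of -0.83 ± 0.39 did not pass (adjusted p 0.216). H2-Ab1 (chr17:34406296-34406355), its beta chain, had 4.00, 3.83 and 3.60 in antimiR skin, against 3.77, 3.79 and 3.69 in intact PBS skin, a change of 0.07 ± 0.10 (adjusted p 0.741) that became -0.23 when arrays were scaled to each other and 0.93, past the threshold, with Cy5 alone. H2-Eb1, the beta chain of I-E, had 2.95 and 2.88 on the 2 antimiR arrays with a value, against 2.75, 2.99 and 2.72 in intact PBS skin, a change of 0.10 ± 0.11 (adjusted p 0.643) that became -0.33 under scaling and 0.85, not past it, with Cy5 alone. Cd74, the invariant chain that blocks the groove until the endosome, had 2.54, 1.56 and 2.23 in antimiR skin, against 1.49, 2.10 and 1.17 in intact PBS skin. The groups overlapped and the change of 0.52 ± 0.28 did not pass (adjusted p 0.277). Ciita (chr16:10526568-10526627), the activator of class II genes, had 1.36, 1.15 and 1.08 in antimiR skin, against 0.78, 0.95 and 0.88 in intact PBS skin, without overlap but also without passing, at 0.33 ± 0.11 (adjusted p 0.0852).

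The 2 class II probes that rose encode editors of peptide loading rather than presenting chains. H2-Oa, a chain of the DO protein that restrains peptide exchange, had 0.26, -0.30 and -0.15 in antimiR skin, against -0.69, -0.84 and -0.80 in intact PBS skin, and rose by 0.72 ± 0.14 (adjusted p 0.00761). H2-Ob, its partner, changed by 0.26 (adjusted p 0.0966) with groups that did not overlap. H2-DMb1, a chain of the DM protein that exchanges peptides, had 3.27, 2.73 and 3.08 in antimiR skin, against 2.09, 2.76 and 1.68 in intact PBS skin. Its groups overlapped through intact PBS 2, and its change of 0.85 ± 0.24 (adjusted p 0.0434) was -0.14 in the deposited table of gene values. The H2-DMb1 call was lost without intact PBS 1, intact PBS 3, antimiR 1 or antimiR 3 (adjusted p 0.0955 to 0.13), which left 1 class II probe called.

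Array by array, the median of the class I probes, each centred over the 12 arrays, was 0.06, 0.13 and 0.08 in antimiR skin, against -0.28, -0.30 and -0.25 in intact PBS skin. The antimiR arrays were all higher for class I, by several times the SD of 0.07 between arrays of a group. For class II the medians were 0.19, -0.10 and 0.09 in antimiR skin, against -0.22, 0.02 and -0.31 in intact PBS skin, so that these groups overlapped. Without intact PBS 2, 12 class I and 2 class II probes were called, and without intact PBS 3, 16 and 1. Within slide 3, which held 3 antimiR arrays and 1 intact PBS array, the median change was 0.25 over class I and 0.30 over class II probes, against 0.02 over all probes. There Psmb8 differed by 1.01, Psmb9 by 1.32, Psmb10 by 1.20, Tapbp by 0.92, Tap1 by 1.23 and B2m by 0.22, with no test since slide 3 held only 1 PBS array.

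**Figure D2:**
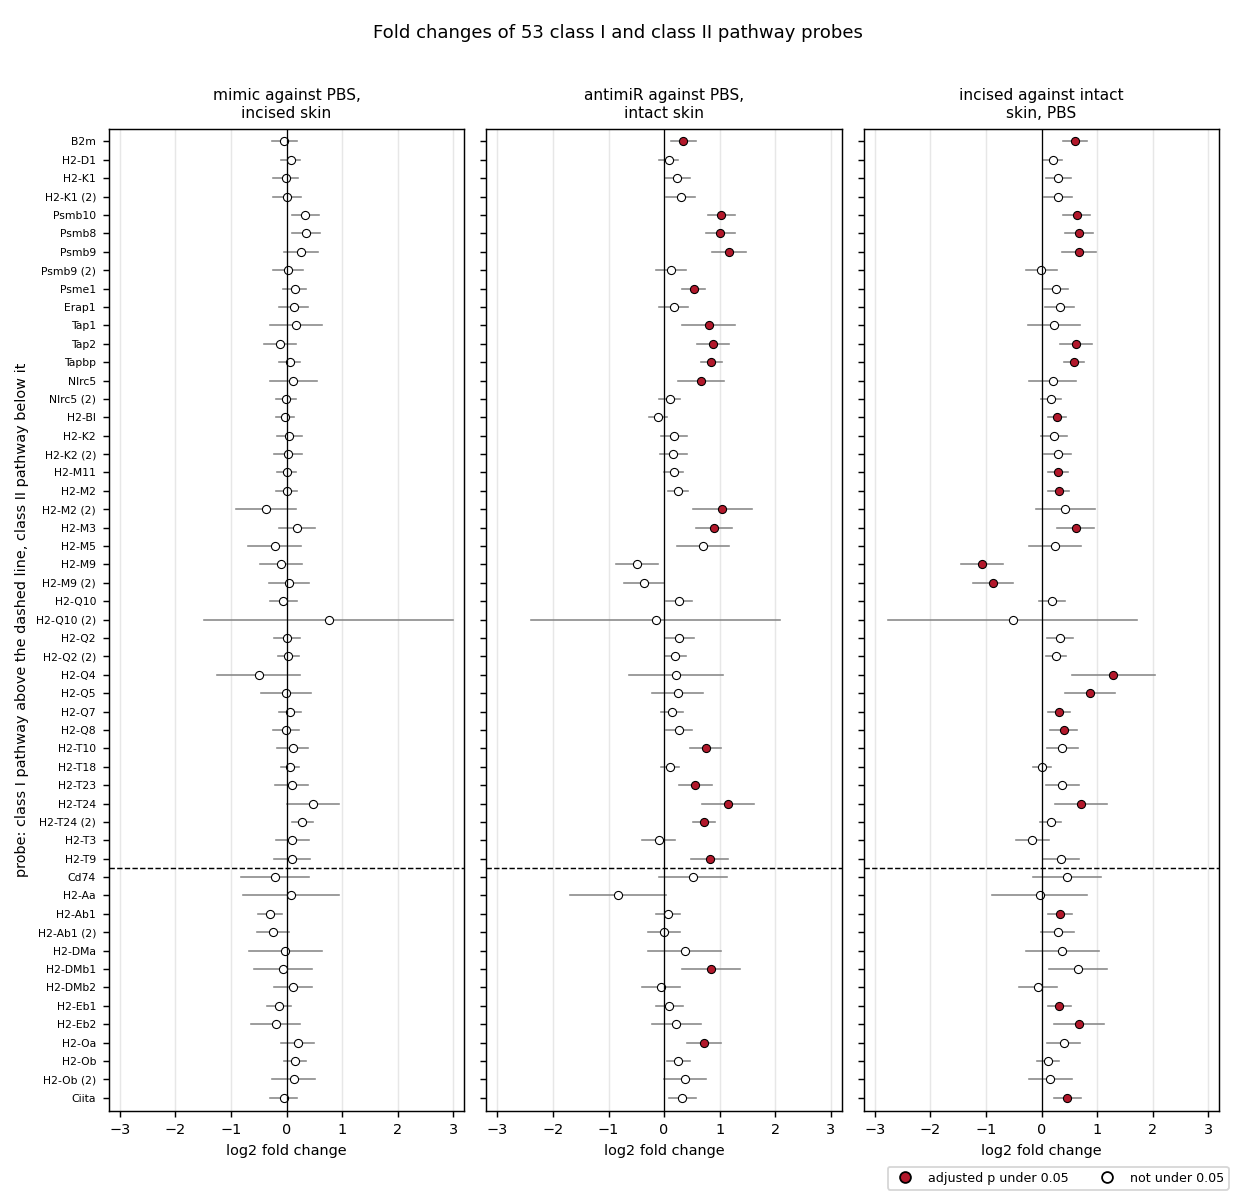
Log2 fold change (horizontal axes) of each of the 53 class I and class II pathway probes (rows, a number in brackets marking a further probe of a gene), for the mimic in incised skin, for antimiR in intact skin (each against PBS) and for the wound under PBS. Lines are 95% confidence intervals and filled points have an adjusted p under 0.05. Filled points are absent for the mimic and number 18 for antimiR and 21 for the wound, and for the wound those of H2-Ab1, H2-Eb1, H2-M2 and H2-Q7 change sign when arrays are scaled to each other and that of H2-M11 with Cy5 alone, the second H2-M9 probe not being refitted.

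Class I pathway genes were also higher in wounded skin, the proteasome and loading genes that passed by 1.5 to 1.6-fold. In incised against intact skin, both under PBS, 15 of 40 class I probes rose and 2 fell, against 9.58% and 5.6% of all probes. The split was 5 and 2 when arrays were scaled to each other and 2 and 2 with Cy5 alone. In class II, 4 of 13 probes rose and 0 fell. The incised arrays lay above all intact arrays for 27 class I probes and below them for 2, and above for 5 class II probes, against 19.5% of all probes above and 35% not overlapping in either direction. Median changes were 0.30 for class I and 0.33 for class II, against -0.001 over all probes. The comparison shares its intact PBS arrays with the antimiR comparison, so similar signs in both are partly built in. No slide held both incised PBS and intact PBS arrays. With the slide as a fixed block, 0 class I and 0 class II probes were called, and 11 probes rose and 2 fell over the whole array.

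By role, 3 of the 5 probes of the immunoproteasome and its activator rose with the wound and 2 of the 4 for transport, trimming and loading. Psmb8 had 0.85, 0.43 and 0.57 in incised PBS skin, against the intact PBS values given above near -0.06, and rose by 0.68 ± 0.12 (adjusted p 0.00435). Psmb9 had 1.16, 0.70 and 0.88 in incised PBS skin, all above the intact arrays, and rose by 0.67 ± 0.14 (adjusted p 0.0103). Its dimmer second probe did not follow, with overlapping groups and a change of -0.004 (adjusted p 0.987). Psmb10 had 0.62, 0.68 and 0.67 in incised PBS skin and rose by 0.64 ± 0.11 (adjusted p 0.0045). On their brightest probes, these 3 genes of the immunoproteasome separated incised from intact arrays without overlap. Tapbp had 0.23, 0.15 and 0.12 in incised PBS skin, against -0.35, -0.41 and -0.49 in intact PBS skin, and rose by 0.58 ± 0.09 (adjusted p 0.00209). Tap2 rose by 0.62 ± 0.13 (adjusted p 0.0104), while Tap1, with 0.62, 0.19 and 0.62 in incised PBS skin, overlapped the intact arrays and changed by 0.22 (adjusted p 0.524). Psmb8, Psmb9, Psmb10, Tapbp and Tap2 kept their calls when any single array was left out. With Cy5 alone all but Psmb10 lost them, and with the slide as a fixed block all did. The Psmb9 call was also lost when arrays were scaled to each other and in the deposited table.

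B2m had 1.31, 1.19 and 1.05 in incised PBS skin, against 0.50, 0.53 and 0.71 in intact PBS skin. Incised arrays were all higher, by 0.61 ± 0.10 or 1.52-fold (adjusted p 0.00357). The B2m call was lost when arrays were scaled to each other, with Cy5 alone and with the slide as a fixed block. H2-K1 had 2.43, 2.41 and 2.33 in incised PBS skin and H2-D1 had 2.30, 2.23 and 2.16, both above the intact arrays but without passing, at 0.30 (adjusted p 0.0746) and 0.20 (adjusted p 0.101), and both turned negative, to -0.24 and -0.30, when arrays were scaled to each other. Nlrc5, with 3.04, 2.47 and 2.95 in incised PBS skin, overlapped and did not pass, at 0.20 (adjusted p 0.52) and at -0.41 under scaling. Of other H2 class I genes, H2-Q5 rose by 0.88 (adjusted p 0.0178), H2-Q4 by 1.29 (adjusted p 0.0303), H2-T24 by 0.71 (adjusted p 0.0455) and H2-M3 by 0.61 (adjusted p 0.0199), the rest of the 9 being H2-Bl, H2-M2, H2-M11, H2-Q7 (at -0.21 under scaling) and H2-Q8. Those of H2-Bl, H2-M11, H2-Q7 and H2-Q8 were each lost without any 1 of 5 of the 6 arrays (adjusted p 0.056 to 0.115). The H2-Q4 call was lost without any 1 of the 6 arrays (adjusted p 0.0524 to 0.103), H2-T24's without 5 of them (0.0554 to 0.148), H2-M3's without incised PBS 1 or 3 or intact PBS 1 or 3 (0.0536 to 0.0763) and H2-Q5's without incised PBS 1 or intact PBS 3 (0.0535 to 0.0684). The H2-M2 change of 0.31 (adjusted p 0.0329) was lost without any 1 of the 6 arrays (adjusted p 0.0564 to 0.117) and was -0.16 under scaling. The second H2-T24 probe did not pass, at 0.16 (adjusted p 0.24), nor did the second of H2-M2, at 0.43 (adjusted p 0.257).

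H2-M9, a class I-like gene of the M region, was the one member that fell. It had 0.89, 0.68 and 0.73 in incised PBS skin, against 1.62, 1.75 and 2.14 in intact PBS skin. The groups lay wide apart on both of its probes, which fell by 1.07 ± 0.17 (adjusted p 0.00342) and by 0.87 (adjusted p 0.00652). Both probes were dim, though well above background on all 12 arrays. Their mean log2 intensities were 6.7 and 6.69, against 6.39 and 6.45 for the H2-T3 and H2-T18 probes just inside the filter. The brighter probe kept its call when any single array was left out and lost it with the slide as a fixed block (adjusted p 0.337).

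In class II, Ciita and 3 beta chains rose with the wound. Ciita had 1.39, 1.16 and 1.45 in incised PBS skin, against 0.78, 0.95 and 0.88 in intact PBS skin, and rose by 0.46 ± 0.11 (adjusted p 0.0182). H2-Ab1 had 4.04, 4.04 and 4.16 in incised PBS skin, against 3.77, 3.79 and 3.69 in intact PBS skin, a rise of 0.33 ± 0.10 (adjusted p 0.0463) that reversed to -0.58 when arrays were scaled to each other. H2-Eb1 had 3.16, 3.06 and 3.21 in incised PBS skin, against 2.75, 2.99 and 2.72 in intact PBS skin, a rise of 0.32 ± 0.10 (adjusted p 0.0486) that reversed to -0.36 under scaling. H2-Eb2, a second E beta gene, had 1.79, 1.19 and 1.33 in incised PBS skin, against 1.15, 0.41 and 0.73 in intact PBS skin, and rose by 0.68 ± 0.20 (adjusted p 0.0471). Cd74, with 2.17, 1.73 and 2.24 in incised PBS skin, changed by 0.45 (adjusted p 0.295) and H2-Aa, with 3.52, 4.52 and 4.19, by -0.03 (adjusted p 0.964), both with overlapping groups. The Ciita call was lost without incised PBS 1 or 3 or intact PBS 1 (adjusted p 0.0535 to 0.0712), that of H2-Ab1 without any 1 of the 6 arrays (0.0675 to 0.144), that of H2-Eb1 without any but intact PBS 2 (0.0716 to 0.146) and that of H2-Eb2 without any but intact PBS 1 (0.0516 to 0.158). The class II count fell to 0 without incised PBS 1 or 3, to 1 without incised PBS 2 or intact PBS 1 or 3, and to 3 without intact PBS 2. The class I count of 17 was 8 without incised PBS 1, 9 without intact PBS 1, 10 without incised PBS 2 or 3, and 12 and 13 without intact PBS 2 and 3.

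In wounded skin the mimic moved none of these probes past the threshold. Of 40 class I and 13 class II probes 0 were called, against 0.503% of all probes. At so low a share, a count of 0 does not set these probes apart from the rest of the array. An unadjusted p under 0.05 was found for 4 class I and 1 class II probes, against 3444 of all 28838 probes. The median change was 0.05 for class I and -0.05 for class II probes, against 0 over all. The mimic arrays lay above all incised PBS arrays for 4 class I probes and 1 class II probe, and below them for 2 class II probes, against 23.2% of all probes in either direction. The 5 probes of the immunoproteasome and its activator were all positive, with a median of 0.26. Psmb10 had 1.00, 1.00 and 0.99 in mimic skin, against 0.62, 0.68 and 0.67 in incised PBS skin, without overlap, and differed by 0.34 ± 0.11 (adjusted p 0.227). Psmb8 had 0.96, 1.02 and 0.91 in mimic skin, against 0.85, 0.43 and 0.57 in incised PBS skin, also without overlap, at 0.35 ± 0.12 (adjusted p 0.243). On slide 1, which held mimic 1 and the 3 incised PBS arrays, they differed by 0.35 and 0.35, with no test. Psmb9, with 1.29, 1.20 and 1.04 in mimic skin, overlapped the incised PBS arrays at 0.26 (adjusted p 0.505). The second probe of H2-T24 also stood apart, at 0.29 (adjusted p 0.2).

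For the presenting molecules, unadjusted 95% intervals of the mimic difference are given. They reflect scatter between arrays in a fit without the slide. All incised PBS arrays lay on 1 slide with mimic 1, and mimic 2 and 3 on another. A slide shift is therefore not covered, and the intervals do not bound a mimic effect. B2m had 1.23, 1.15 and 1.06 in mimic skin, against 1.31, 1.19 and 1.05 in incised PBS skin, a difference of -0.04 with a 95% interval of -0.26 to 0.18. H2-K1 had 2.44, 2.42 and 2.26 in mimic skin and differed by -0.02 (-0.25 to 0.21), and H2-D1 had 2.30, 2.40 and 2.21 and differed by 0.07 (-0.10 to 0.25). Tap1, with 0.81, 0.81 and 0.31 in mimic skin, differed by 0.17 (-0.30 to 0.65), and Nlrc5, with 3.14, 2.96 and 2.73, by 0.12 (-0.30 to 0.54). H2-Ab1 was the class II member of smallest p, with 3.84, 3.79 and 3.71 in mimic skin, against 4.04, 4.04 and 4.16 in incised PBS skin. Both of its probes lay wholly below the PBS arrays, at -0.30 ± 0.10 (adjusted p 0.242) and -0.24 (adjusted p 0.529). H2-Eb1, with 3.05, 3.07 and 2.89 in mimic skin, overlapped the PBS arrays at -0.14 (-0.35 to 0.07), as did Ciita, with 1.43, 1.24 and 1.17, at -0.05 (-0.29 to 0.19). Cd74 had 2.04, 1.90 and 1.58 in mimic skin, a difference of -0.21 (-0.82 to 0.41), and H2-Aa had 4.54, 3.79 and 4.14, a difference of 0.08 (-0.78 to 0.94). The mimic and wound comparisons share the incised PBS arrays.

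Setting the mimic effect in wounds against the antimiR effect in intact skin, 3 class I probes and 0 class II probes differed, all 3 lower for the mimic, against 0.483% of all probes lower. Tapbp differed by -0.80 ± 0.12 (adjusted p 0.0117), its mimic effect being 0.06 and its antimiR effect 0.85. Tap2 differed by -0.998 ± 0.18 (adjusted p 0.026), with -0.11 for the mimic and 0.89 for antimiR. Psmb9 differed by -0.91 ± 0.20 (adjusted p 0.0492), with 0.26 for the mimic and 1.17 for antimiR. Its dimmer second probe did not pass, at -0.096 (adjusted p 0.872). The Tapbp call held when any single array was left out. The Tap2 call was lost without any 1 of 7 arrays, namely the 3 incised PBS arrays, mimic 2 or 3 and antimiR 2 or 3 (adjusted p 0.0525 to 0.0844), and the Psmb9 call without any array but incised PBS 2 and antimiR 1 (0.0535 to 0.122). The count of 3 was 1 without incised PBS 1 or 3, mimic 2 or 3, or antimiR 2 or 3, and 5 without antimiR 1. The medians of this difference were -0.28 for class I and -0.36 for class II probes.

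**Figure D3:**
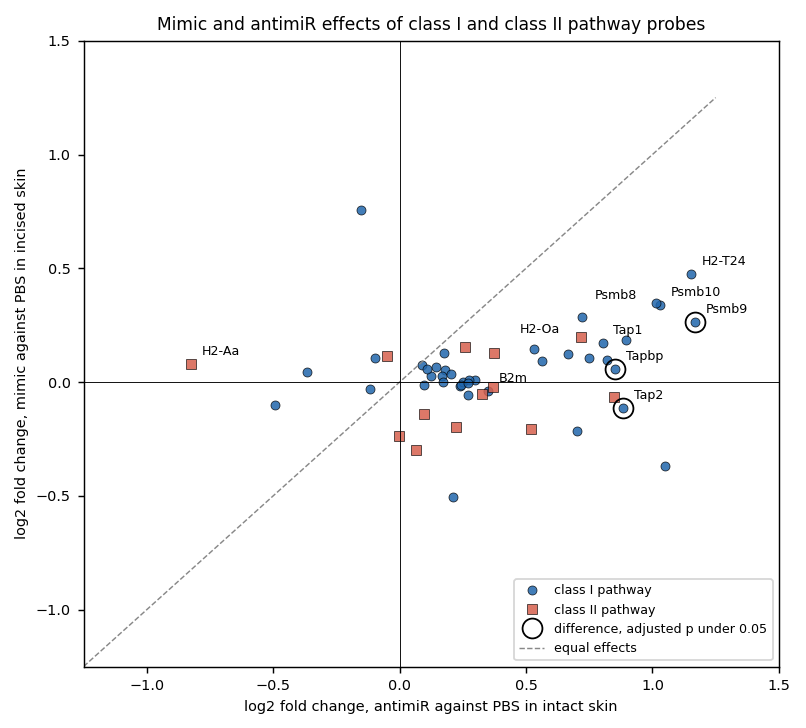
Log2 fold change for antimiR against PBS in intact skin (horizontal axis) and for mimic against PBS in incised skin (vertical axis), for 40 class I pathway probes (circles) and 13 class II pathway probes (squares), with a dashed line where both effects would be equal. Rings mark Tapbp, Tap2 and Psmb9, whose effects differed at an adjusted p under 0.05. Most class I probes lie right of 0 and near 0 in height.

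Genes around the pathway were read from lists chosen for their known roles. Of 15 genes of interferon signalling to MHC genes, 9 rose and 0 fell with antimiR, with a median of 0.56, against 5.08% of all probes that rose and 6.03% that fell. Without intact PBS 2 or 3 the count was 9 as well, and without antimiR 2 it was 6. Irf8, a transcription factor of myeloid cells and of interferon responses, rose by 1.38 ± 0.10 (adjusted p 4.83e-05), and Stat2, which carries the type I interferon signal, by 1.79 (adjusted p 0.000453). Irf1, the factor that binds class I promoters, rose by 1.30 (adjusted p 0.000595), and Socs1, an inhibitor of the pathway, by 1.43 (adjusted p 0.00269). All 7 genes of the co-stimulation list rose, with a median of 0.72. The list is mixed: it also holds PD-L1 and PD-L2, which bind an inhibitory receptor, and the chemokine receptor Ccr7. Cd274 (PD-L1) rose by 1.21 (adjusted p 0.00971) and Pdcd1lg2 (PD-L2) by 0.55 (adjusted p 0.00774). Cd40 rose by 1.07 (adjusted p 0.0118) and Cd80 by 0.51 (adjusted p 0.00929). The co-stimulation count was 7 without intact PBS 2 and 5 without intact PBS 3. The Cd40 call was lost without antimiR 2, and that of Ccr7 without intact PBS 1 or 3 or any antimiR array (adjusted p 0.0522 to 0.0957). Those of Cd80 and Pdcd1lg2 were lost in the deposited table. With only the antimiR and intact PBS arrays in the fit, 1 of the 7 was called.

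Of 15 factors of class II processing and promoters, 3 rose with antimiR, the endosomal proteases Lgmn (1.16, adjusted p 0.00223), Ctss (1.41, adjusted p 0.0116) and Ctsb (0.59, adjusted p 0.0187), the last lost without intact PBS 1 or antimiR 1, and the count was 3 without intact PBS 2 or 3. The share of all probes that rose was 5.08%. Of 12 general loading chaperones and subunits of the standard proteasome, 0 rose and 1 fell, Psma3, by 0.42 (adjusted p 0.0279), a share close to the 6.03% of all probes that fell and a call lost without any 1 of 5 arrays, the 3 intact PBS arrays, antimiR 1 or antimiR 2. Of the 6 measured MHC-like and Cd1 molecules, 0 were called, and 0 to 1 when a single array was left out.

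In wounded against intact skin, 9 of the 15 interferon genes rose, with a median of 0.59, against 9.58% of all probes that rose, led by Irf8 (1.27, adjusted p 0.000203), Ifnar1 (0.51, adjusted p 0.00562), Irf9 (0.84, adjusted p 0.00697) and Ifnar2 (0.71, adjusted p 0.0124). The interferon count was 4 without incised PBS 1, and 10 and 8 without intact PBS 2 and 3. Of the class II processing factors 7 rose, a count that was 4 without incised PBS 1, led by Lgmn (1.71, adjusted p 0.000407), Ctsb (1.23, adjusted p 0.000487), Ctss (2.13, adjusted p 0.0015) and Ifi30 (1.54, adjusted p 0.00853). Without intact PBS 2 and 3 it was 6 and 7. Of the mixed co-stimulation list 3 rose, 4 without intact PBS 2 and 3 without intact PBS 3: Cd80 (0.66, adjusted p 0.00255), Ccr7 (1.90, adjusted p 0.0098) and Cd40 (1.03, adjusted p 0.0118). Of the loading chaperones and standard proteasome subunits 1 of 12 rose, near the share of all probes: Psme3, by 0.32 (adjusted p 0.0166), a change of -0.028 when arrays were scaled to each other and a call lost without incised PBS 1 or 3. With the slide as a fixed block the counts of interferon, class II processing and co-stimulation genes were 1, 0 and 0. Under the mimic 0 genes of the 5 pathway lists passed, against 0.503% of all probes. The mimic and antimiR effects differed for 3 interferon genes, all lower for the mimic, against 0.483% of all probes lower: Irf8 by -1.08, Irf1 by -1.17 and Stat2 by -1.39. That count was 1 without any 1 of 8 arrays, and of the 3 only the Irf8 call held whichever single array was left out. The Irf8 call was lost under scaling and with the slide as a fixed block. Those of Stat2 and Irf1 were lost with Cy5 alone, in the deposited table and with the slide as a fixed block.

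**Figure D4:**
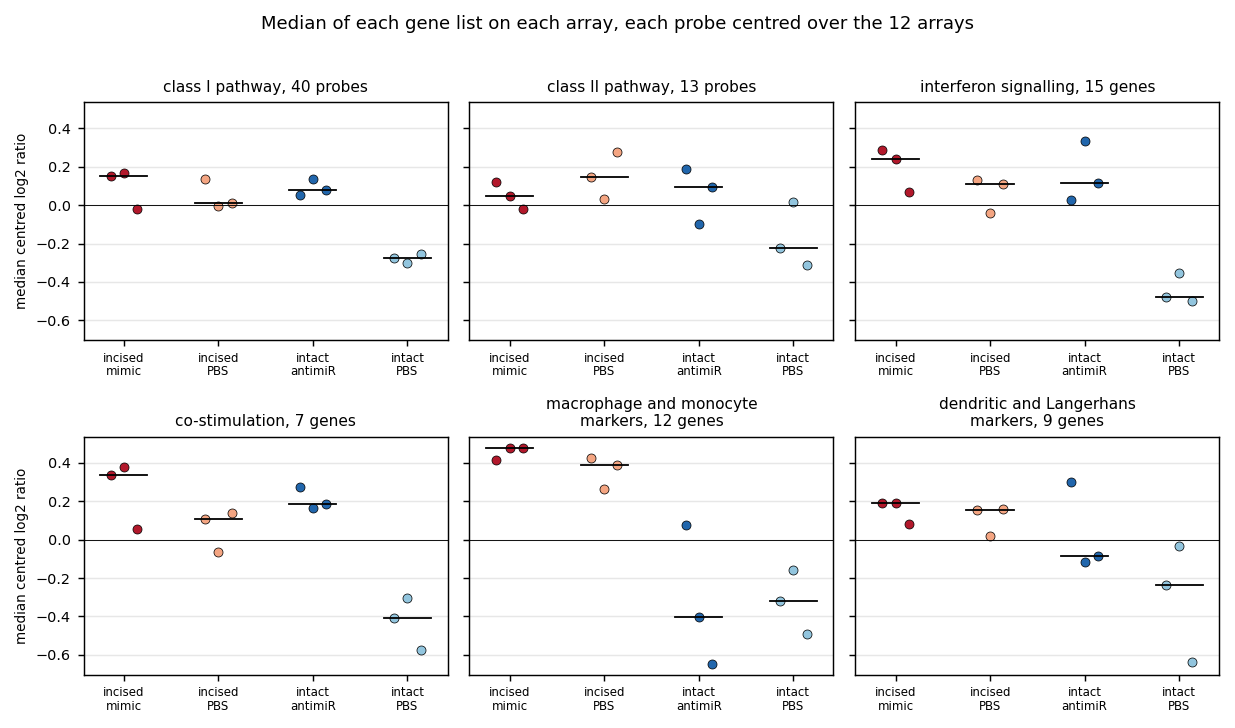
Median log2 ratio of each list on each array (vertical axis, each probe centred over the 12 arrays, same scale in all panels) for class I and class II pathway probes, interferon signalling, co-stimulation, macrophage and monocyte markers, and dendritic and Langerhans cell markers, in the groups incised mimic, incised PBS, intact antimiR and intact PBS. Points are arrays and lines the median of the 3. For class I, interferon signalling and the mixed co-stimulation list the 3 antimiR arrays lie above the 3 intact PBS arrays, while for macrophage and dendritic markers they overlap.

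Whole skin holds many cell types, and in such bulk RNA more cells of a type and more RNA per cell cannot be told apart. Of 12 measured macrophage and monocyte markers, 3 rose with antimiR, against 5.08% of all probes, and 3 without intact PBS 2 or 3: Fcgr1 by 2.49, Cd68 by 1.26 and Ccr2 by 1.47. The list's median was 0.09. The list's summed level, the median of centred log2 ratios, ranged from -0.65 to 0.08 in antimiR skin, against -0.49 to -0.16 in intact PBS skin. Without antimiR 1, 8 markers were called, a count that takes in both rises and falls. Without antimiR 2, Ccr2 was no longer called. Of 9 measured dendritic and Langerhans cell markers 1 rose, Flt3 by 0.86, with list levels of -0.12 to 0.30 in antimiR skin, against -0.64 to -0.03 in intact PBS skin, and with 3 called without intact PBS 2 and 1 without intact PBS 3. The count of 1 in 9 is near the share of all probes. Of 8 measured T and NK cell markers, Cd3d rose by 1.04 and Cd3g by 0.82, with list levels of 0.05 to 0.16 in antimiR skin, against -0.20 to -0.09 in intact PBS skin. Without intact PBS 3, antimiR 2 or antimiR 3, 0 T and NK markers were called, and without intact PBS 1 or 2, 1 was. Of 4 measured B cell markers 0 were called. The markers Xcr1, Ly6c2 and Cd8a were not kept by the filter on dim probes. The part of immune cell number in the rise of the class I genes was not tested.

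Markers of the skin's other cells also differed between the groups. Of 6 fibroblast markers 0 were called with antimiR, and 1 without intact PBS 2, with a median of 0.80 and list levels of 0.04 to 0.96 in antimiR skin, against -1.36 to 0.28 in intact PBS skin, the lowest being intact PBS 3. With the mimic 0 were called, with a median of -0.87 and list levels of -0.75 to -0.31 in mimic skin, against -0.03 to 0.57 in incised PBS skin, without overlap. Of 5 skeletal muscle markers 2 fell with antimiR, against 6.03% of all probes: Myh1 by 0.49 (adjusted p 0.0129) and Acta1 by 0.58 (adjusted p 0.015), with list levels of -0.29 to -0.18 in antimiR skin, against 0.12 to 0.37 in intact PBS skin, without overlap. That count was 2 without intact PBS 2 or 3, 3 without antimiR 1, 0 without antimiR 2, 1 without antimiR 3 and 0 under scaling. With the mimic, 2 fell, against 0.326% of all probes: Pvalb by 0.65 (adjusted p 0.0258) and Myh1 by 0.56 (adjusted p 0.0346), with list levels of -0.41 to -0.11 in mimic skin, against 0.23 to 0.33 in incised PBS skin, also without overlap. That count was 1 without mimic 1 and 0 without any other single mimic or incised PBS array. Of 7 keratinocyte markers 0 were called with antimiR, or 1 without intact PBS 3, and 0 with the mimic, with list levels of -0.42 to -0.15 in antimiR skin, against -0.17 to 0.14 in intact PBS skin, and of -0.08 to 0.13 in mimic skin, against 0.11 to 0.32 in incised PBS skin. The part of these cells in the results on MHC genes was not tested.

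With the wound, 7 of 12 macrophage and monocyte markers rose, against 9.58% of all probes, with a median of 0.65 and list levels of 0.27 to 0.42 in incised PBS skin, against -0.49 to -0.16 in intact PBS skin. Fcgr1 rose by 2.13, Ccr2 by 1.86 and Cd68 by 0.90. The macrophage count was 4 without any 1 of the incised PBS arrays, intact PBS 1 or intact PBS 3, and 6 without intact PBS 2. Of the dendritic and Langerhans markers 3 rose, Flt3, Itgax and Cd24a, a count that was 1 without incised PBS 1, incised PBS 3 or intact PBS 3 and 4 without intact PBS 2. Of the T and NK markers 0 were called, and of the B cell markers 1, Cd79b, by 0.72, a count that was 0 without incised PBS 1 and 2 without intact PBS 1. Of the fibroblast markers 1 rose, Col3a1, by 1.88 (adjusted p 0.0471), lost without any array but intact PBS 2, and of the skeletal muscle markers 2, Pvalb by 0.39 and Myh4 by 0.46, which were -0.68 and -0.94 under scaling. The muscle count was 1 without incised PBS 2 and 0 without incised PBS 1, incised PBS 3, intact PBS 2 or intact PBS 3. The part of these cells in the wound result was not tested.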

How the data were processed

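RNA of 12 skin samples was measured on dual-colour Agilent arrays, skin in Cy5 and a universal mouse reference in Cy3, without a dye swap. Per the file headers, the deposited scanner files hold spot and background intensity from Agilent Feature Extraction 11.5.1.1, processed intensity and a log10 ratio, with probe positions on mm9. A second table, of log2 values by gene, was deposited for the series by the authors, and its columns correlated at 0.891 to 0.918 with the scanner ratios and held skin over reference. Its scale was 1.17 to 1.22 times that of the scanner ratios and its column medians were -0.0408 to 0.

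Mean intensity was background corrected by normexp with offset 50 and loess normalized within arrays (limma 3.58.1, R 4.3.3), with control spots at weight 0 and outlier spots left out, and spots of a probe were averaged. Probes well above background in Cy5 on 3 of 12 arrays were kept, 28838 of 39429. Fits used all 12 arrays, and a probe lacking a value used those left: H2-Q2 (1 probe), H2-Q4 and H2-Eb1 each lacked 1 antimiR array. The number of arrays limits the precision, with 8 residual and 3 prior degrees of freedom. The steps were tested on simulated data with independent arrays and no slide effect, which cannot speak to the layout of groups over slides.

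The members and lists were chosen with earlier results of these data known. Per-array values were given for B2m, H2-K1, H2-D1, Tap1, Psmb8, Psmb9, Nlrc5, Cd74, Ciita, H2-Aa, H2-Ab1 and H2-Eb1 and for the 4 members of smallest p of each class in a comparison, using a gene's brightest probe. For lists, up to 4 called members of smallest p were named. Counts of calls without an array or under other processing take in both directions unless they are split. Tap2, Psme1, H2-M3, H2-T9, H2-T10, H2-T23, H2-M2, H2-Q4, H2-Q5, H2-Bl, H2-M11, H2-Q7, H2-Q8 and Erap1, the printed sequences, and the last genes of any short count were chosen after values were seen. Replicate numbers mark different mice. The slide was read from the names of the scanner files.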

Additional observations from a re-analysis of the deposited data

Results flagged for a closer look

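The effect of the mimic in incised skin and that of antimiR in intact skin differed for 3 class I pathway probes by limma's test of the difference itself. Tapbp differed by -0.80, Tap2 by -0.998 and Psmb9 by -0.91 on the log2 scale, mimic effect minus antimiR effect, with adjusted p values of 0.0117, 0.026 and 0.0492. Agent and kind of skin change together in this difference and cannot be told apart. Psmb10, at -0.69 (adjusted p 0.0561), and Psmb8, at -0.67 (adjusted p 0.077), did not pass.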

How the results depend on the processing

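The mimic count stayed at 0 for both classes in all alternatives and with any array left out. For antimiR, the class I count of 16 was 10 when arrays were scaled to each other and 9 with only the compared arrays in the fit. The antimiR class II count of 2 was 1 under scaling, in the deposited table, without the filter on dim probes and with the slide as a fixed block, and 0 with only the compared arrays. For the wound, the class I count of 17 was 7 under scaling (5 higher, 2 lower), 4 with Cy5 alone (2 higher, 2 lower), 11 with only the compared arrays, 0 with the slide as a fixed and 10 as a random block. The wound class II count of 4 was 2 without background correction and in processed signals, 1 under scaling, in the deposited table, without the filter, with only the compared arrays and with the slide as a random block, and 0 with it fixed. The difference count of 3 was 1 under scaling and with the slide as a random block, and 0 with Cy5 alone or the slide fixed. Leaving out arrays gave 11 to 17 and 1 to 2 for antimiR, 8 to 13 and 0 to 3 for the wound, and 1 to 5 for the difference. Among called changes of named genes, directions reversed under scaling for H2-Ab1 (-0.58), H2-Eb1 (-0.36), H2-M2 (-0.16), H2-Q7 (-0.21), Psme3 (-0.028), Pvalb (-0.68) and Myh4 (-0.94) in the wound comparison, with Cy5 alone for H2-M11 (-0.12) and Pvalb (-0.72) there, and in the deposited table for H2-DMb1 with antimiR (-0.14). The cause was not tested. Psmb8, Psmb10, Tapbp, Tap2, H2-T24 and H2-M3 kept their antimiR calls in all 19 alternatives, and Psmb9, whose call was lost in the deposited table (adjusted p 0.0533), in 18. The class medians for antimiR ranged over the alternatives from 0.17 to 0.39 (class I) and from 0.17 to 0.51 (class II), and for the wound from 0.08 to 0.37 and from 0.07 to 0.47.

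The replicate numbers do not pair the samples: deviations of arrays with the same number correlated between -0.42 and 0.30. With the replicate block, antimiR gave 13 class I and 1 class II calls, the wound 13 and 2, the mimic 0 and 0, and the difference 1. Dim probes set a limit: 14 of 69 member probes were left out by the filter on signal over background.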
